A study of Homo sapiens with 6 samples.

Results

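Genes of glycolysis and of the cellular response to low oxygen were followed in Hep3B, a long-established cell line from a human hepatocellular carcinoma, in a line that carries a decoy directed at the miR-17 microRNA family. The set holds 39 genes chosen by name, and its members were the probe sets whose platform symbol is exactly 1 of these names. By that rule 87 of 54675 probe sets were members and stood for 37 genes, of which 36 could be tested among 13949 genes in all. No probe set carried the symbol CA9 or SLC16A3 alone, and the single probe set of SLC2A2 stood at the lowest value of the scale on all 6 arrays.

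The study compared 2 stable lines on Affymetrix HG-U133 Plus 2 arrays of total RNA, with 3 arrays each. The miR-17 TuD line carries a tough decoy, a lentivirally delivered RNA with exposed microRNA binding sites, against the miR-17 family, and the NC TuD line carries the control decoy. Lentiviral particles were added at 5 infectious units per cell for 48 hours, and colonies that withstood 2 weeks of puromycin were combined, so each group rests on 1 pooled line. All 6 samples shared 10% serum, polybrene at 10 µg per mL and puromycin at 1 µg per mL. No oxygen level is listed among these conditions. Whether the 3 arrays of a line came from separate cultures is not in the labels. The p-values therefore reflect only the spread among these arrays, which may be technical. Each sample description also holds a code, with 72HR in all 6, PLUSDOX in the miR-17 TuD arrays and NODOX in the NC TuD arrays. What the code stands for is unknown here, and it cannot be told apart from the decoy.

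Glycolysis splits glucose into pyruvate and yields ATP without oxygen, and lactate dehydrogenase then turns pyruvate into lactate. Its flow is set largely at the entry of glucose, at hexokinase, at phosphofructokinase and at pyruvate kinase. When oxygen is short, the transcription factors HIF-1 and HIF-2 escape prolyl hydroxylation and degradation and raise many genes, among them glucose transporters, most glycolytic enzymes, angiogenic factors and mitophagy receptors. Liver cancer cells commonly run glycolysis at a high rate even with oxygen present. Hepatocytes and liver tumour lines differ in which isozymes of each step they use.

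The decoy is directed at a family that shares a seed, the bases 2 to 8 through which a microRNA pairs with its targets. In RefSeq (GRCh38.p14) 8 human mature microRNAs hold the seed of miR-17-5p. The 6 that are usually counted as the miR-17 family are shown because the decoy is directed at them, 5′ to 3′ with the seed in capitals.
hsa-miR-17-5p (chr13:91350618-91350640, plus strand): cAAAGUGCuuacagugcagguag
hsa-miR-20a-5p (chr13:91351072-91351094, plus strand): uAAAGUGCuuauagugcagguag
hsa-miR-20b-5p (chrX:134169850-134169872, minus strand): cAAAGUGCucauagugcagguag
hsa-miR-93-5p (chr7:100093815-100093837, minus strand): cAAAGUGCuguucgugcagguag
hsa-miR-106a-5p (chrX:134170244-134170266, minus strand): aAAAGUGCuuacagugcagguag
hsa-miR-106b-5p (chr7:100094043-100094063, minus strand): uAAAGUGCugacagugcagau

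All values below are log2 expression levels as deposited, where a step of 1 is a doubling, and every difference is miR-17 TuD minus NC TuD on that scale. A gene was called when its adjusted p in limma with Benjamini-Hochberg adjustment over all genes tested was below 0.05. Arrays of a group correlated at 0.9989 to 0.9993 and arrays of different groups at 0.9977 to 0.9984. The lowest value on every array was 2.12 and the highest was near 16.3. Of 9 hepatocyte markers all were well above the lowest value and 8 fell, with summed levels of 111 to 112 in the miR-17 TuD and 117.5 to 118.0 in the NC TuD arrays, and the part of this shift in the results was not tested. Of 5 leukocyte markers measured LYZ rose, with summed levels of 17.1 to 17.4 against 16.7 to 16.8, and no fibroblast, endothelial or erythroid marker was called. The fibroblast markers summed to 40.18 to 41.22 in the miR-17 TuD and 39.87 to 39.98 in the NC TuD arrays, with COL1A2 and LUM higher on every miR-17 TuD array (0.44 and 0.24, not called) and COL3A1 at the lowest value. The part of these shifts was not tested either. The leukocyte markers CD3E and CD163 and the endothelial markers VWF, KDR and CDH5 stood at the lowest value in every array. The GAPDH control of RNA integrity, its 3′ minus its 5′ probe set, ran from -0.26 to -0.24 over the 6 arrays.

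The counts of members that rose and fell varied by role, and the difference between roles was not tested. Of 36 measured, 4 rose and 8 fell, against 6.78% and 4.6% of all genes tested, or 33.3% called against 11.4%. The members were chosen with earlier results of these data known, so these shares give no independent support. The genes tested had only to exceed a mean of 2.14, close to the lowest value. The groups did not overlap in 6 members that were higher and 13 that were lower on all miR-17 TuD arrays, a separation seen in 33% of all genes tested. The glycolytic enzymes gave 3 of the rises and no fall among 17 genes, while the oxygen-response genes gave 5 of the falls and 1 rise among 12. The regulators of glycolysis gave 2 falls among 5 genes, and the transporters 1 fall among 2. The median difference was 0.01 for the enzymes, -0.10 for the regulators, -0.33 for the transporters and -0.17 for the oxygen-response genes, beside 0.00056 for all genes tested. The count that rose was 2 without NC TuD replicate 1 and 2 without NC TuD replicate 2, and the count that fell was 4 without either of them. PFKP, SLC2A3, EGLN3, GPD1L and KDM3A passed whichever of the 6 arrays was omitted.

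**Figure D1:**
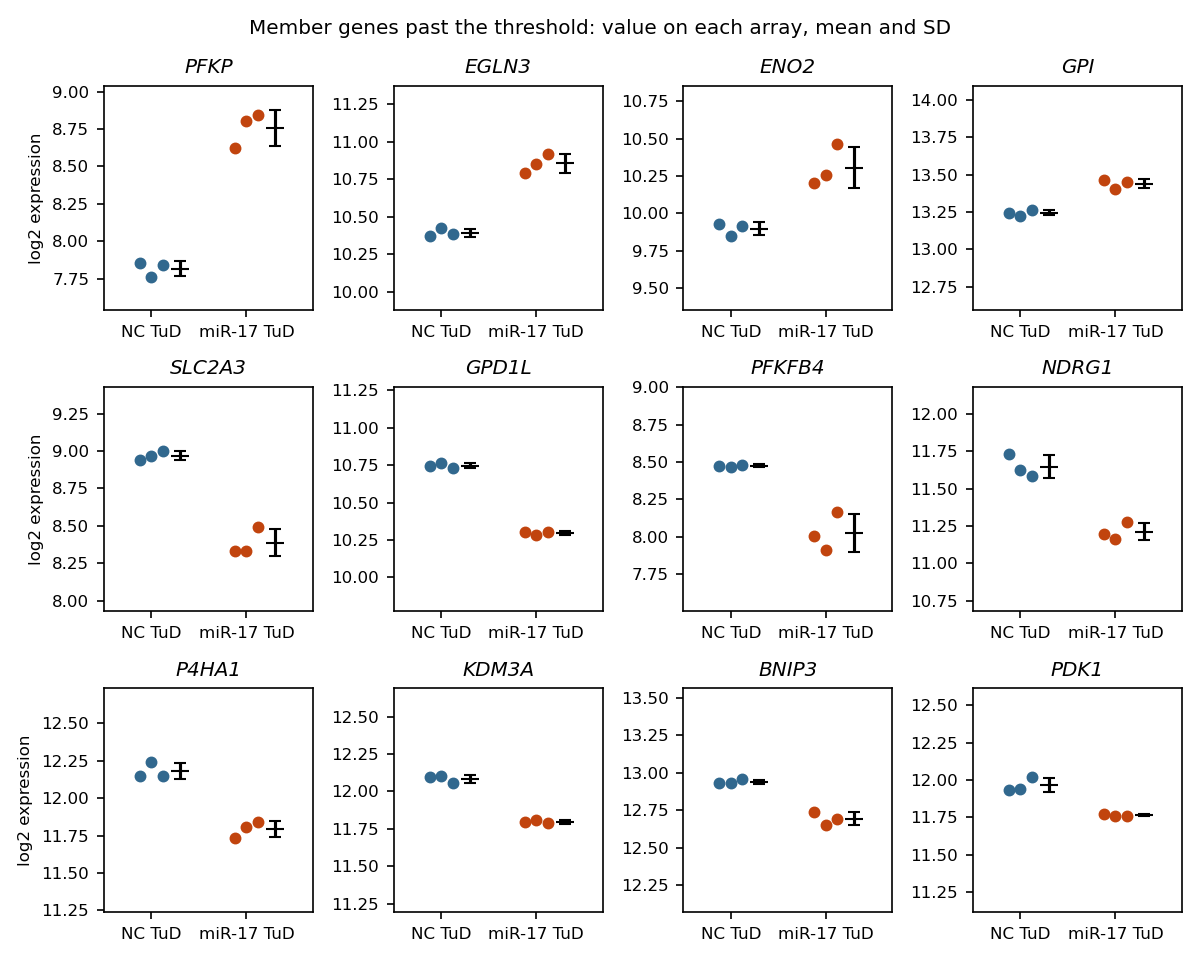
Log2 expression on each array (points) for the 12 member genes past the threshold, with the mean and SD of each group (n = 3) beside the points; every panel spans 1.5 log2 units. In all 12 the groups do not overlap, with PFKP, EGLN3, ENO2 and GPI higher in the miR-17 TuD arrays and the other 8 lower.

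Among the glycolytic enzymes, PFKP changed most. PFKP is the platelet-type isozyme of phosphofructokinase, which commits sugar to glycolysis. It read 8.62, 8.81 and 8.85 in the miR-17 TuD arrays and 7.85, 7.76 and 7.84 in the NC TuD arrays. Every miR-17 TuD array lay above every NC TuD array by far more than the spread within either group. The difference was 0.94 (SE 0.07, 95% interval 0.76 to 1.12, adjusted p = 0.00736 in limma), a 1.92-fold rise. The muscle isozyme PFKM read 9.26, 9.15 and 9.31 against 9.08, 9.03 and 9.07. Its groups also did not overlap, but the difference of 0.18 (95% interval 0.06 to 0.30, adjusted p = 0.0844) missed the threshold. PFKM was called once miR-17 TuD replicate 2 was omitted (adjusted p = 0.0347) or each array was centred on its median (adjusted p = 0.0341). The liver isozyme PFKL read 10.89, 10.90 and 10.91 against 10.93, 10.86 and 10.89, which overlapped, with a difference of 0.01 (95% interval -0.05 to 0.06). The intervals of PFKL and PFKP do not overlap, and the difference between the isozymes was not tested.

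The other enzymes that rose stand at the second step and near the end of the pathway. GPI, glucose-6-phosphate isomerase, read 13.46, 13.40 and 13.45 against 13.25, 13.23 and 13.26. The groups did not overlap, and the rise was small and tight at 1.14-fold (difference 0.195, SE 0.021, adjusted p = 0.0122 in limma). ENO2, the neuronal enolase, read 10.20, 10.26 and 10.46 against 9.93, 9.85 and 9.92. Its miR-17 TuD arrays were all higher but spread more widely than the controls, with a difference of 0.41 (SE 0.077, adjusted p = 0.0406), a 1.33-fold rise. When arrays were omitted 1 at a time, the ENO2 call held only without miR-17 TuD replicate 3 (adjusted p up to 0.14 otherwise). It was also lost when weak probe sets were kept (adjusted p = 0.0811). The GPI call was lost without NC TuD replicate 1 (adjusted p = 0.0574) or NC TuD replicate 2 (adjusted p = 0.0567). Without either of these arrays, 1 enzyme was called higher.

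The remaining 14 enzymes did not pass, with differences from -0.12 to 0.18. Several of the most familiar glycolytic transcripts had narrow intervals around 0. GAPDH, the glyceraldehyde phosphate dehydrogenase, read 15.32, 15.26 and 15.29 against 15.30, 15.28 and 15.28, with a 95% interval of -0.04 to 0.05. LDHA, which makes lactate, had an interval of -0.05 to 0.02, the aldolase ALDOA of -0.02 to 0.02, the phosphoglycerate kinase PGK1 of -0.07 to 0.05, the enolase ENO1 of -0.05 to 0.06 and the pyruvate kinase PKM of -0.12 to 0.08. LDHA, GAPDH and ALDOA read above 15 on every array and TPI1 on 5 of 6, near the top of the scale, and whether differences are compressed there was not tested. Probe sets of these abundant genes can also bind transcripts of processed pseudogenes.

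Hexokinase, which traps glucose in the cell, was represented among the members mainly by HK2, an isozyme common in tumours. HK2 read 11.83, 11.90 and 11.91 against 11.94, 12.02 and 11.98. The groups did not overlap, and the difference of -0.10 (adjusted p = 0.13) did not pass. The isozyme HKDC1, outside the set, read 11.67, 11.68 and 11.78 against 11.66, 11.59 and 11.56. Its miR-17 TuD arrays were all higher, and the difference of 0.11 (adjusted p = 0.197 in limma) did not pass. HK1 stayed between 3.26 and 3.35 on all 6 arrays, close to the lowest value. LDHB, the lactate dehydrogenase subunit common in heart, read 2.59 to 2.91, also close to the lowest value. ALDOC, the brain aldolase, was the least precise enzyme, with replicates from 6.86 to 7.52 and a 95% interval of -0.71 to 0.48. TPI1 and PGAM1, the triosephosphate isomerase and the phosphoglycerate mutase, differed by 0.04 and 0.02 with overlapping groups.

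**Figure D2:**
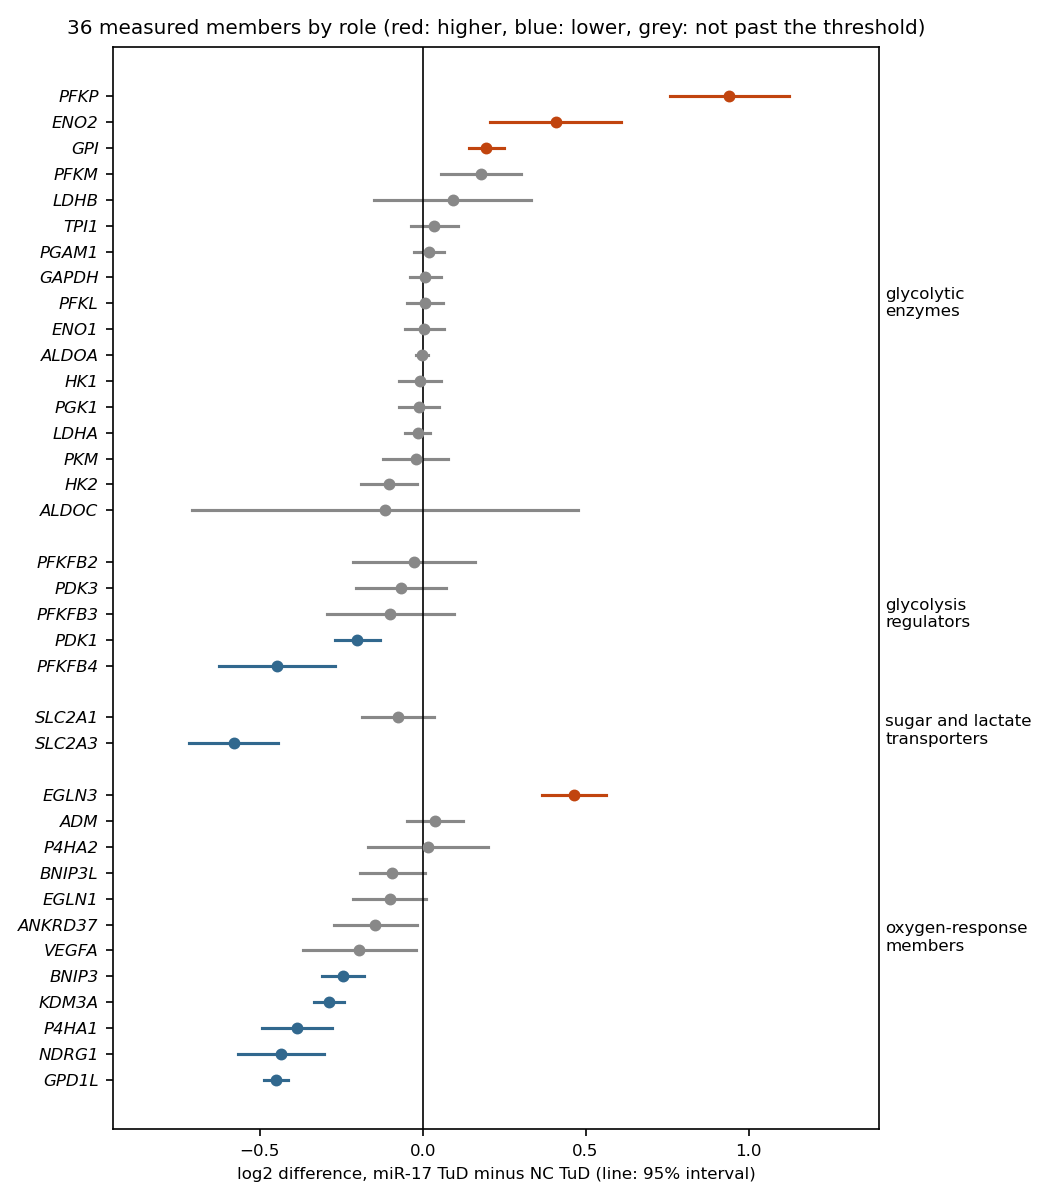
Difference in log2 expression (miR-17 TuD minus NC TuD, x axis) with its 95% interval for the 36 measured members, grouped by role; red and blue mark genes past the threshold that were higher or lower. Most glycolytic enzymes lie close to 0 with short intervals apart from PFKP, ENO2 and GPI, while most oxygen-response genes lie to the left of 0.

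The regulators of glycolysis all had differences below 0, and PFKFB4 and PDK1 fell. The PFKFB enzymes make and break fructose 2,6-bisphosphate, the allosteric activator of phosphofructokinase. PFKFB4 read 8.01, 7.91 and 8.16 against 8.48, 8.46 and 8.48. The controls were almost identical and all miR-17 TuD arrays lay below them, a 1.36-fold fall (difference -0.45, SE 0.068, adjusted p = 0.0258 in limma). PFKFB3 read 13.89, 14.06 and 14.16 against 14.15, 14.11 and 14.15, and PFKFB2 read 7.39, 7.56 and 7.49 against 7.55, 7.39 and 7.58. Both overlapped, with differences of -0.10 (adjusted p = 0.461) and -0.03 (adjusted p = 0.863), the latter with either sign over the alternatives.

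PDK1 and PDK3 phosphorylate pyruvate dehydrogenase and so keep pyruvate out of the mitochondrial cycle. PDK1 read 11.77, 11.76 and 11.76 against 11.93, 11.94 and 12.02. The groups were apart and the fall was 1.15-fold (difference -0.20, SE 0.026, adjusted p = 0.0181 in limma). PDK3 read 8.11, 8.11 and 8.04 against 8.23, 8.19 and 8.05, which overlapped (difference -0.07, adjusted p = 0.475). The PFKFB4 call was lost without miR-17 TuD replicate 1 or any single control array (adjusted p from 0.0743 to 0.0986), and when weak probe sets were kept (adjusted p = 0.0542). With its 2 probe sets averaged, the PFKFB4 difference was -0.23 (adjusted p = 0.0408). With 1 array omitted, the PDK1 call held only without NC TuD replicate 3 (adjusted p up to 0.0649 otherwise). The number of regulators that fell was therefore 0 without miR-17 TuD replicate 1, NC TuD replicate 1 or NC TuD replicate 2, and 1 without any of the other 3 arrays.

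Of the sugar transporters, SLC2A3 fell and SLC2A1 did not pass. SLC2A3 encodes GLUT3, a high-affinity glucose carrier, and SLC2A1 encodes GLUT1, the carrier of most proliferating cells. SLC2A3 read 8.33, 8.33 and 8.49 against 8.94, 8.96 and 9.0. All 3 miR-17 TuD arrays were lower with no overlap, a 1.49-fold fall (difference -0.58, SE 0.052, adjusted p = 0.0094 in limma), the largest fall among the members. SLC2A1 read 7.39, 7.30 and 7.39 against 7.45, 7.37 and 7.49, which overlapped, with a difference of -0.08 (95% interval -0.19 to 0.04). SLC2A2 encodes GLUT2, the main glucose carrier of hepatocytes, and its probe set was at 2.12 on every array, so no difference could be measured. Fewer transcripts per cell and fewer cells of a kind cannot be told apart in RNA of a pooled line.

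Oxygen-response genes fell more often than they rose. Of 12 measured, GPD1L, NDRG1, P4HA1, KDM3A and BNIP3 fell, EGLN3 rose and 6 did not pass. No oxygen level is listed, and the direction in which low oxygen moves each gene in these cells was not tested. The falls are therefore no measure of the response to low oxygen. In 9 of the 12 all miR-17 TuD arrays lay below all NC TuD arrays, a pattern found in 14.7% of all genes tested, and in 2 all lay above, found in 18.3%. The count that fell was 3 without NC TuD replicate 1 and 3 without NC TuD replicate 2. Names ending in s_at or x_at mark probe sets that can bind several transcripts, and with these omitted 7 oxygen-response members remained measured, of which 2 fell and 0 rose.

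GPD1L encodes a glycerol 3-phosphate dehydrogenase-like enzyme. It read 10.31, 10.28 and 10.31 against 10.74, 10.77 and 10.73. Both groups were tight and well apart, a 1.37-fold fall (difference -0.45, SE 0.014, adjusted p = 0.00338 in limma), the most precise of the member changes. NDRG1, a stress-responsive gene induced by hypoxia in many cell types, read 11.19, 11.17 and 11.27 against 11.73, 11.62 and 11.59. All miR-17 TuD arrays were lower, and the fall was 1.35-fold (difference -0.44, SE 0.05, adjusted p = 0.014), with the call lost without NC TuD replicate 2 (adjusted p = 0.0634).

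P4HA1 encodes a catalytic subunit of collagen prolyl 4-hydroxylase, which needs oxygen to mature collagen. It read 11.73, 11.81 and 11.84 against 12.15, 12.24 and 12.15, a 1.31-fold fall with no overlap (difference -0.39, SE 0.041, adjusted p = 0.0124 in limma). The call was lost without NC TuD replicate 1 (adjusted p = 0.0521). The paralog P4HA2 read 11.03, 11.09 and 11.27 against 11.13, 11.08 and 11.14, the only oxygen-response member whose groups overlapped, with a difference of 0.02 (95% interval -0.17 to 0.20). KDM3A, a histone H3 lysine demethylase and HIF target, read 11.79, 11.81 and 11.79 against 12.10, 12.10 and 12.05. It fell 1.22-fold, with replicates that differed little (difference -0.29, SE 0.017, adjusted p = 0.00619).

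BNIP3 and BNIP3L encode receptors that mark mitochondria for autophagy. BNIP3 read 12.74, 12.65 and 12.69 against 12.93, 12.93 and 12.96, a 1.19-fold fall with no overlap (difference -0.25, SE 0.025, adjusted p = 0.0108 in limma). The call was lost without NC TuD replicate 1 (adjusted p = 0.0533) or NC TuD replicate 2 (adjusted p = 0.0536). BNIP3L read 11.66, 11.70 and 11.68 against 11.85, 11.74 and 11.72. Its groups were apart by little, and the difference of -0.09 (adjusted p = 0.205) did not pass.

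Of the prolyl hydroxylases that mark HIF for degradation, EGLN3 rose and EGLN1 did not pass. EGLN3, itself a HIF target, read 10.79, 10.85 and 10.92 against 10.37, 10.42 and 10.38. All miR-17 TuD arrays were higher, a 1.38-fold rise (difference 0.47, SE 0.037, adjusted p = 0.00899 in limma), and it was the only oxygen-response member that rose. EGLN1, the main HIF hydroxylase, read 13.45, 13.42 and 13.33 against 13.47, 13.56 and 13.47. Its arrays were all lower by a small margin, and the difference of -0.10 (95% interval -0.21 to 0.01, adjusted p = 0.217) did not pass. Its other 3 probe sets gave 0.018, 0.030 and 0.016 with overlapping groups, and with all 4 averaged the difference was -0.0094. The difference between EGLN3 and EGLN1 was not tested.

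Secreted and other oxygen-response genes did not pass. VEGFA, the angiogenic growth factor, read 13.35, 13.57 and 13.53 against 13.67, 13.72 and 13.65. The groups did not overlap, with a difference of -0.19 (95% interval -0.37 to -0.02, adjusted p = 0.146 in limma), and VEGFA passed when its probe sets were averaged (-0.23, adjusted p = 0.0484). ANKRD37, a small ankyrin repeat gene induced by HIF, read 9.64, 9.55 and 9.72 against 9.76, 9.79 and 9.79, apart but short of the threshold (-0.15, adjusted p = 0.14). ADM, which encodes the vasodilator adrenomedullin, read 13.67, 13.66 and 13.77 against 13.66 on all 3 NC TuD arrays, with a difference of 0.04 (95% interval -0.05 to 0.12).

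**Figure D3:**
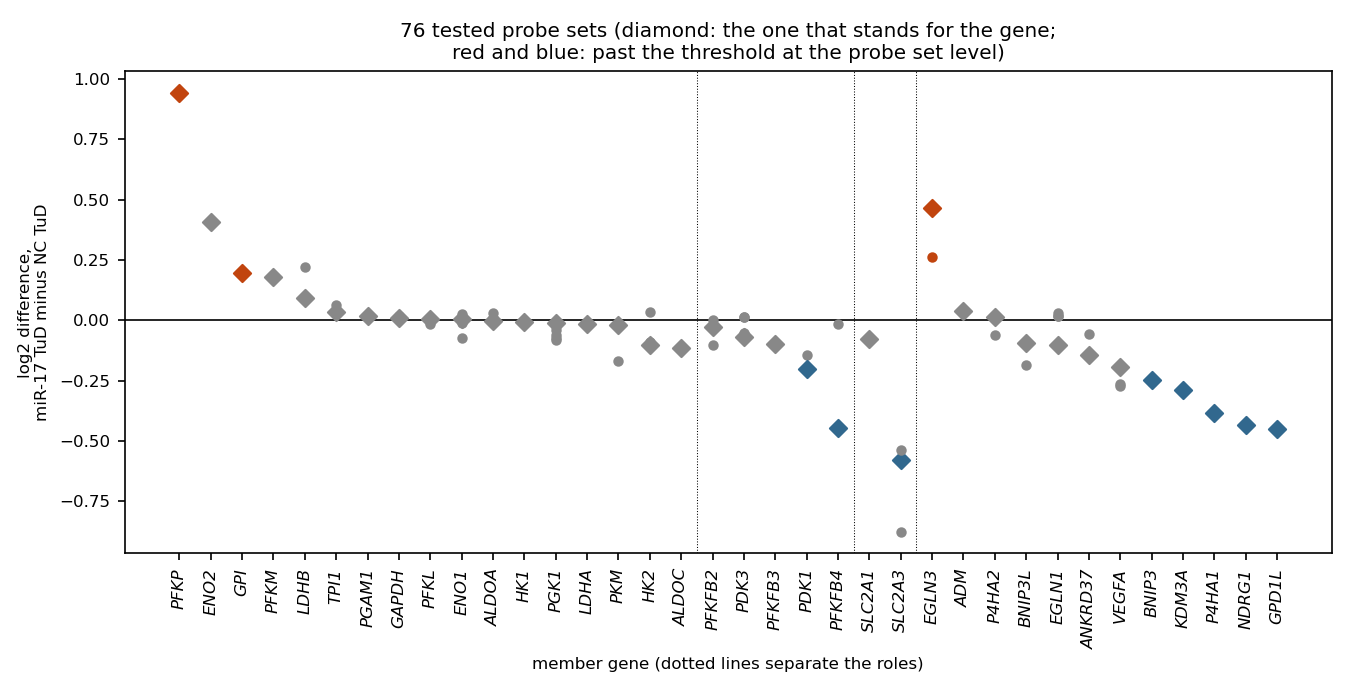
Difference in log2 expression (y axis) of each of the 76 tested member probe sets, by gene and role; diamonds stand for the gene in the counts, and red or blue marks probe sets past the threshold at the probe set level. All 3 SLC2A3 probe sets and all 4 VEGFA probe sets lie below 0 and both EGLN3 probe sets above it, while PFKFB4 has 1 probe set near 0.

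Most members with several probe sets gave readings of 1 sign. Of the 84 probe sets that are not controls, 76 were tested. At that level 4 were called higher and 9 lower, against 3.35% and 2.48% of all probe sets tested. In either direction 13 were called, or 17.1% against 5.83%. All miR-17 TuD arrays were higher in 8 of the 76 and lower in 21, a separation seen in 27.3% of all probe sets tested. Of 21 members with at least 2 tested probe sets, all of a gene's probe sets had the same sign in 13 and both signs in 8. The 3 probe sets of SLC2A3 gave -0.58, -0.54 and -0.87, each with all miR-17 TuD arrays below the controls, and only the first was called. All 4 probe sets of VEGFA lay between -0.27 and -0.19 with no overlap of the groups, and none was called. Both probe sets of EGLN3 were called (0.47 and 0.26), as were both of BNIP3 (-0.25 and -0.26). PDK1 gave -0.20 and -0.14, of which the first was called. The second probe set of PFKFB4 read 3.27 to 3.50 on the 6 arrays, far closer to the lowest value than the first, and gave -0.02. At this level the calls were fewer without NC TuD replicates 1, 2 and 3, with 0 higher in each and 1, 2 and 3 lower, and 4 were lower without miR-17 TuD replicate 2. ENO2, called among genes, missed the threshold among probe sets (adjusted p = 0.0588).

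**Figure D4:**
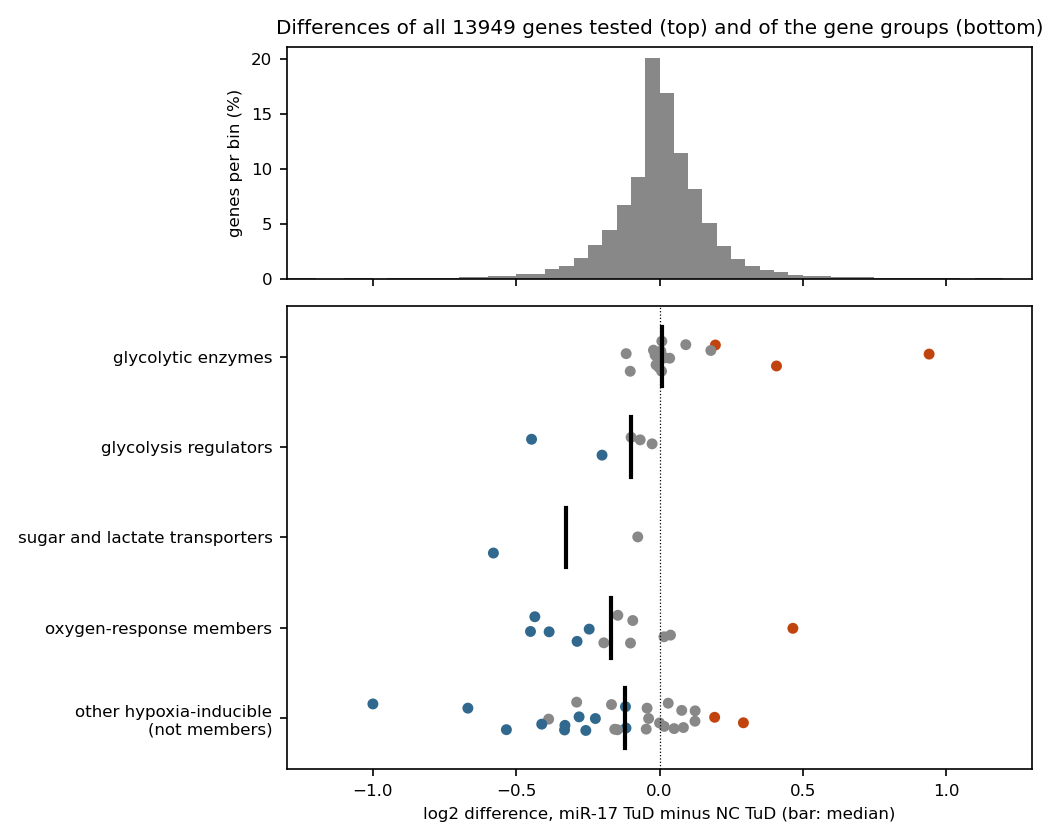
Distribution of the log2 differences of all 13949 genes tested (top, percent of genes per bin of 0.05) and the differences of the members of each role and of 29 other hypoxia-inducible genes (bottom; black bars are medians, red and blue points passed the threshold). The glycolytic enzymes centre on 0 with PFKP far to the right, and both oxygen-response lists have medians below 0 (-0.17 and -0.12).

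Hypoxia-inducible genes outside the set also fell more often than they rose. Of 29 measured, 11 fell and 2 rose, beside 4.6% and 6.78% of all genes tested, with a median of -0.12. The list was chosen with earlier results of these data known, so it gives no independent support. LOX, the collagen cross-linking lysyl oxidase, read 9.60, 9.43 and 9.54 against 10.47, 10.61 and 10.49, with a wide gap between the groups (difference -1.0, SE 0.062, adjusted p = 0.00619 in limma). RORA, a nuclear receptor, read 9.23, 9.23 and 9.07 against 9.81, 9.96 and 9.77 (difference -0.67, adjusted p = 0.0127), and with its 6 probe sets averaged the difference was -0.33. STC2, the secreted glycoprotein stanniocalcin 2, read 7.73, 7.60 and 7.66 against 8.16, 8.18 and 8.25 (difference -0.53, adjusted p = 0.00899). The RORA call was lost without NC TuD replicate 1 (adjusted p = 0.0547). The count that fell was 7 without miR-17 TuD replicate 2 and 4, 6 and 6 without NC TuD replicates 1, 2 and 3. The count that rose was 1 without miR-17 TuD replicate 3 and 0 without miR-17 TuD replicate 2 or any 1 of the NC TuD arrays.

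Among 14 measured HIF subunits and oxygen sensors, HIF1AN rose and no other gene was called. HIF1AN encodes the asparagine hydroxylase that blocks HIF from binding its coactivators. It read 10.39, 10.52 and 10.71 against 9.90, 9.97 and 9.99, a 1.5-fold rise with no overlap (difference 0.59, SE 0.088, adjusted p = 0.0248 in limma). The call held without miR-17 TuD replicates 1 or 3 and was lost without any other array (adjusted p from 0.0708 to 0.0968). The HIF1AN call was also lost when weak probe sets were kept and with the replicate number as a block. HIF1A, the oxygen-regulated subunit of HIF-1, read 14.66, 14.71 and 14.62 against 14.68, 14.66 and 14.62, which overlapped (95% interval -0.07 to 0.09), with either sign over the alternatives. EPAS1, the corresponding subunit of HIF-2, read 13.11, 13.19 and 13.25 against 13.00, 13.07 and 13.04. Its arrays were all higher, with a difference of 0.15 that did not pass (adjusted p = 0.103), and it passed with each array centred on its median (adjusted p = 0.0335) or with its probe sets averaged (0.12, adjusted p = 0.0358). ARNT, the shared partner subunit, differed by 0.03 (95% interval -0.17 to 0.24) and VHL, the ligase subunit that recognises hydroxylated HIF, by -0.04 (95% interval -0.34 to 0.26), both with overlapping groups and with either sign over the alternatives. The 1 probe set that carries the symbol EGLN2 alone was left out by the filter on low values. HIF activity rests largely on protein stability, which these arrays do not measure.

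In the neighbouring sugar pathways the called share ran from 12.5% to 37.5% of the measured genes of a list, beside 11.4% of all genes tested. In the pentose phosphate pathway, which branches from glycolysis, 3 of 8 measured genes rose and none fell, with all 8 differences above 0. TKT, transketolase, read 12.74, 12.70 and 12.73 against 12.33, 12.27 and 12.37 (difference 0.40, SE 0.03, adjusted p = 0.00787 in limma), and TALDO1, transaldolase, differed by 0.18 (adjusted p = 0.0417). PRPS1, a phosphoribosyl pyrophosphate synthetase, differed by 0.10 (adjusted p = 0.0375). Both of these calls were lost whichever of the 6 arrays was omitted. The count that rose was 3 without miR-17 TuD replicate 3, neither of these genes among them, and 1 without any of the other arrays. The TKT probe set is of suffix s_at, and without such probe sets TKT stood at 1 low level on all arrays and was not called. With its 3 probe sets averaged, the TKT difference was 0.25 (adjusted p = 0.00946).

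Of 17 measured genes of gluconeogenesis and glycogen, 2 rose and 2 fell. The glycogen phosphorylase PYGB differed by 0.49 (adjusted p = 0.0337 in limma), the glucose 6-phosphate transporter SLC37A4 by -0.42 (adjusted p = 0.0278) and the phosphorylase kinase subunit PHKA2 by -0.39 (adjusted p = 0.0454). Among 19 measured genes of pyruvate and lactate handling, the mitochondrial pyruvate carrier subunits MPC1 (-0.18, adjusted p = 0.0323) and MPC2 (-0.10, adjusted p = 0.0434) fell and the aspartate aminotransferase GOT2 rose (0.16, adjusted p = 0.025). Among 16 measured other isozymes and sugar carriers, the phosphatase PGAM5 rose (0.26, adjusted p = 0.0363) and the inositol carrier SLC2A13 fell (-0.32, adjusted p = 0.0189). With probe sets averaged, the difference was -0.17 for MPC2 and -0.16 for SLC2A13, and without s_at and x_at probe sets that of MPC2 was -0.25. MPC2 also lost its call when the filter on low values was dropped (adjusted p = 0.0775) or raised to the 60th percentile (adjusted p = 0.0778) and with each array centred on its median (adjusted p = 0.215). Each of these 8 calls was lost on omission of at least 5 of the 6 arrays, taken singly.

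**Figure D5:**
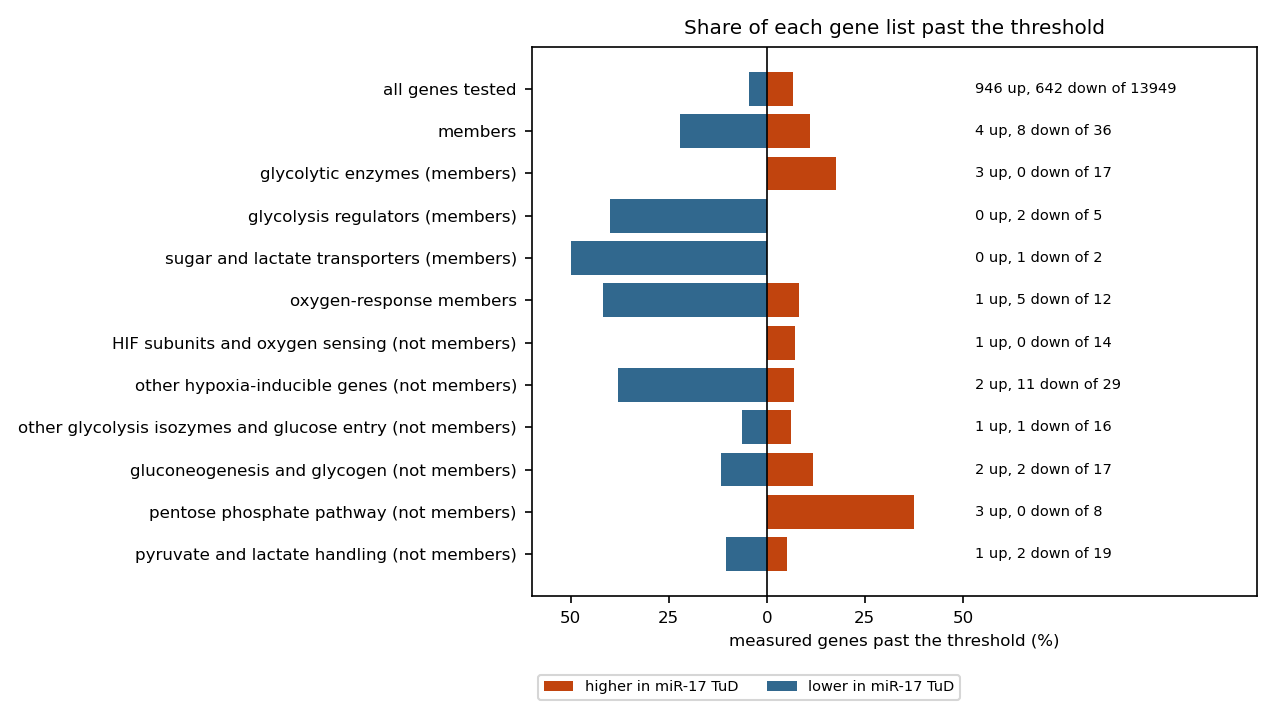
Percent of measured genes past the threshold (x axis, right: higher in miR-17 TuD, left: lower) for all genes tested, all members, the 4 member roles and 6 lists of other pathway genes, with the counts printed at the right. The oxygen-response members (5 of 12) and the other hypoxia-inducible genes (11 of 29) have larger shares called lower than the 4.6% of all genes.

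Promoters of the members were searched for the core of the hypoxia response element, to which HIF binds. The letters searched were ACGTG and GCGTG on both strands of RefSeq windows (GRCh38.p14) from 250 bases before to 50 after each annotated start. Of the 39 genes 34 had at least 1 window. SLC2A3 and NDRG1, which fell, were not among them. The core was present in 41 of 61 member windows (67.2%), beside 48.4% of all 35116 windows and 54.7% of those of protein-coding genes. It was present in 7 of 8 windows of members that fell (87.5%, from 6 genes), 4 of 7 of members that rose (57.1%, from 4 genes) and 26 of 39 of members measured and not called (66.7%). By gene, the core was present in 100% of members that fell, 75% that rose and 90.5% not called, beside 61.9% of protein-coding genes. A gene counted when any of its windows held the core, so genes with more annotated starts had more chances. The members had 61 windows for 34 genes and the protein-coding genes 22199 windows for 15843. The same KDM3A core was counted in overlapping windows. ACGTG also lies within the E-box CACGTG, which other factors bind and which 13.1% of member windows and 7.26% of all windows held.

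For the called members with a match, 25 bases around a core are shown so that the matches behind these counts can be seen, 5′ to 3′ on the strand of the gene with the central match in capitals. Further matches in the flanks, as in PDK1 and BNIP3, are in lower case. A match is a stretch of letters and says nothing of binding in these cells. No core was found in the single window of EGLN3. Where a gene had several cores upstream of its starts, both are shown for GPD1L, the one farther from the start for PDK1 and 1 holding ACGTG for BNIP3 and PFKP.
GPD1L (chr3:32106435-32106459, plus strand): acatgtcccgACGTGcctcgggcag
GPD1L (chr3:32106495-32106519, plus strand): ccggggccagGCGTGcgcagtggtt
P4HA1 (chr10:73096938-73096962, minus strand): tgatcgagctCACGTagcgagggct
KDM3A (chr2:86441335-86441359, plus strand): gggaggctgtGCGTGtcttgtgaga
BNIP3 (chr10:131982042-131982066, minus strand): cacgcgccgcACGTGccacacgcac
PFKFB4 (chr3:48556955-48556979, minus strand): agttgggcatGCGTGgtcggaggcc
PDK1 (chr2:172556063-172556087, plus strand): tgctgcccgcCACGTccctcacgta
PFKP (chr10:3069040-3069064, plus strand): acgagcgcctACGTGatgcccggcc
ENO2 (chr12:6914452-6914476, plus strand): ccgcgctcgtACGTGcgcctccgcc
GPI (chr19:34364820-34364844, plus strand): actgcctgtaACGTGgaaggtgttc
The cores lay 175 and 115 bases before the annotated start of GPD1L, 86 before that of P4HA1, 133 before that of BNIP3, 166 before that of PFKFB4, 118 before that of ENO2 and 162 before that of GPI. For KDM3A the distance was 26 or 116 bases, since 2 starts are annotated. For PDK1 it was 17 bases and for PFKP 139, each from 1 of several annotated starts. Members that rose and members that fell both carried the letters.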

How the data were processed

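Hep3B RNA from 3 miR-17 TuD and 3 NC TuD samples was measured on Affymetrix HG-U133 Plus 2 arrays. The authors deposited 1 log2 value for each array and probe set. RMA and GCRMA appear in the submitters' processing notes, without a role or version. From 36.7% to 37.1% of probe sets per array lay within 0.001 of the lowest value, which hides changes of weakly expressed genes. The number of arrays limits the precision.

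Groups came from the sample titles. The 62 control probe sets, 3 of them for GAPDH, were left out of the fits, as were weak probe sets, with a mean of at most 2.14 (the 40th percentile), which left 32768. GEO's platform annotation gives 41091 probe sets 1 symbol, 1801 several and 11721 none. Members were matched on the platform symbol, and other symbols were updated through Entrez identifiers to RefSeq of GRCh38.p14. The brightest single-symbol probe set stood for each gene. The comparison used lmFit and eBayes of limma 3.58.1 (R 4.3.3, 2-sided, prior degrees of freedom 0.72), with Benjamini-Hochberg adjustment over all genes or probe sets tested. The fit was checked on simulated arrays of independent noise, where recovery of calls was required only for a difference of 1. The check set no requirement on calls of smaller differences and simulated no shared batch. Of the other pathway genes 127 were listed in 6 lists, of which 103 were measured. The genes named are every member called as a gene or with a called probe set, the members of the PFK, PFKFB, PDK, SLC2A and EGLN families, the 2 largest differences of each role, 6 oxygen-sensing genes and up to 3 called genes with the largest difference in each list. VEGFA, the other members named without a call and HKDC1 were named after their values were seen. The members and lists were chosen with earlier results of these data known. Alternatives covered the filter, the choice of probe set, scaling, the variance model, array weights, a replicate block and leaving out each array.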

Additional observations from a re-analysis of the deposited data

How the results depend on the processing

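All 12 called members kept their direction under every alternative that measured them, and 33 of the 38 tested genes named by rule did. GPI, SLC2A3, NDRG1, EGLN3, P4HA1 and KDM3A were not measured without s_at and x_at probe sets. Counts of calls moved more, and where no construction shows why (fewer probe sets or arrays), the cause was not tested. With no filter, 484 genes were called higher and 305 lower, 1 regulator fell, 1 other hypoxia-inducible gene rose, 4 member probe sets were called lower, and the transporter median was -0.076, with SLC2A2 counted at 0. Without s_at and x_at probe sets, 520 genes were called higher and 407 lower. Of 20 members then measured 2 rose and 4 fell, and of the oxygen-response members 0 rose and 2 fell. At that setting 1 other hypoxia-inducible gene rose, 1 member probe set was called higher and 4 lower, and no transporter was measured. The medians there were -0.077 for members, -0.021 for enzymes, -0.13 for regulators, -0.10 for oxygen-response members and -0.15 for the other hypoxia-inducible genes. With each array centred on its median, 1426 genes were called higher and 717 lower, and the medians were -0.0012 for members, 0.029 for enzymes, -0.077 for regulators, -0.096 for the other hypoxia-inducible genes and 0.023 for all genes. The median of all genes was 0.012 with the 60th percentile filter, where that of members was -0.047, and 0.011 with quantile normalization. With probe sets averaged, 1 other hypoxia-inducible gene rose, with a median of -0.15, and counts of probe sets are not defined. When 1 array was left out, the counts ranged from 216 to 719 genes higher, 148 to 569 genes lower, 2 to 4 members higher, 4 to 7 members lower, 1 to 3 enzymes higher, 0 to 1 regulators lower and 3 to 5 oxygen-response members lower. Those of the other hypoxia-inducible genes ranged from 0 to 2 higher and 4 to 9 lower, and those of member probe sets from 0 to 3 higher and 1 to 7 lower. The medians ranged from -0.16 to -0.079 for regulators and from -0.20 to -0.14 for oxygen-response members. Alternatives for the lists of other hypoxia-inducible and pentose phosphate genes were added after seeing the data.

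Genes whose differences took either sign lay near 0. PFKL was -0.0037 with probe sets averaged, -0.0039 with quantile normalization and ran from -0.011 to 0.026 with 1 array left out. PFKFB2 was 0.0020 with quantile normalization and ran from -0.084 to 0.019 with 1 array left out. HIF1A was -0.0040 with quantile normalization and ran from -0.013 to 0.036, and ARNT was -0.0013 with array weights and ran from -0.025 to 0.093. VHL ran from -0.1 to 0.084, the highest without NC TuD replicate 1.

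The groups share replicate numbers. Deviations of same-numbered arrays from their group means correlated at 0.032, 0.13 and 0.10, and each array correlated best with its own number. Whether same-numbered arrays were handled together was not tested. With the replicate number as a block, 467 genes were called higher and 355 lower, 3 members rose and 5 fell, 0 regulators fell, 1 other hypoxia-inducible gene rose and 7 fell, and 0 member probe sets were called higher and 0 lower. Of the 12 called members 8 passed with that block, and ENO2, PFKFB4, PDK1 and NDRG1 did not.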

Other observations

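Outside the member rule, 2 probe sets carry the symbols SLC2A14 and SLC2A3 together and cannot be assigned to either gene. The first read 8.46, 8.69 and 8.71 in the miR-17 TuD and 9.02, 9.13 and 9.07 in the NC TuD arrays, a difference of -0.45 (adjusted p = 0.053 among probe sets in limma). The second read 7.63, 7.70 and 7.84 against 8.43, 8.29 and 8.34, a difference of -0.63 (adjusted p = 0.0206). In both, all miR-17 TuD arrays lay below all NC TuD arrays, as in the 3 probe sets of SLC2A3 alone. For EGLN2, 2 probe sets carry its symbol together with those of neighbouring or readthrough genes, and their differences were 0.09 and 0.08 with overlapping groups.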
